A study of Mus musculus with 4 samples.

Results

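Tight junctions are the belts of contact that seal the space between neighbouring epithelial or endothelial cells. Claudins and occludin cross the membrane and set which ions and solutes pass, the junctional adhesion molecules join cells through immunoglobulin domains, and the zonula occludens scaffolds tie these proteins to the actin cytoskeleton. In epidermis the seal lies in the granular layer, and Cldn1 is required for the water barrier of mouse skin. The genes described here were taken by symbol: the claudins Cldn1, Cldn4, Cldn5, Cldn7 and Cldn12, occludin (Ocln), junctional adhesion molecule A (F11r), and the scaffolds ZO-1 (Tjp1) and ZO-3 (Tjp3). All 9 were among the 22222 gene symbols of the table.

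The RNA came from keratoacanthomas, skin tumours that can regress by themselves, raised in mice by 20 weeks of the carcinogen DMBA. Tumours were taken 1 week after DMBA was stopped (2 mice) or while DMBA was still being given (week 0, 2 other mice). Sorting for Tomato and P-cadherin, both positive, gave the cells of every library, labelled epithelial, with 1 library per mouse. The sources used here do not name the strain, the age or the driver of Tomato. Levels are in scaled CPM, the reads of a gene relative to a library size that the authors had scaled, and read numbers are whole reads recovered from those values. The libraries held 5551937 and 7662159 reads at 1 week and 9678682 and 5635945 reads on DMBA, in replicates 1 and 2. Intervals on levels are 95% exact Poisson intervals and cover counting error only.

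The libraries did not carry the sorted cell type to the same degree, and on-DMBA replicate 1 stood apart. Of 13 epithelial markers (among them Krt5, Krt14, Epcam and Cdh1), all 13 were highest in on-DMBA replicate 1 and all 13 lowest in on-DMBA replicate 2. Their summed level was 4108 and 3356 scaled CPM at 1 week and 47144 and 523 scaled CPM on DMBA. All 10 endothelial markers (among them Pecam1, Cdh5, Kdr and Tek) were highest in 1-week replicate 2 and lowest in on-DMBA replicate 1, with sums of 902 and 1947 scaled CPM at 1 week and 12.9 and 273.9 scaled CPM on DMBA. Sums of the 10 leukocyte markers (Ptprc, Lyz2, Cd68, Csf1r and others) were 5210 and 9568 scaled CPM at 1 week and 15.1 and 12597 scaled CPM on DMBA, with Fcer1g at 0 in on-DMBA replicate 1. Sums of the 10 fibroblast markers (Col1a1, Col1a2, Col3a1, Pdgfra and others) were 48376 and 50893 scaled CPM at 1 week and 184 and 42237 scaled CPM on DMBA. No other marker was at 0 in any library. The sort label therefore matched the markers in on-DMBA replicate 1 best, and the log2 difference of each member tested is also given against each on-DMBA library alone.

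The start-proximal sequences of 4 of the genes are shown because their genes had 3 different patterns over the libraries, described below. Cldn1 was high in both on-DMBA libraries. Cldn4 and F11r were both lowest in on-DMBA replicate 2, the library with the fewest epithelial transcripts. Cldn7 and Cldn12, whose windows are not shown, were also lowest in that library. Cldn5 was lowest in the library with the fewest endothelial transcripts. Each run is the 250 bases before the annotated start, from RefSeq on GRCm38.p6, on the strand of the gene, and all 9 genes had an entry. Capitals mark matches on either strand to the AP-1 element TGANTCA, the Grainyhead-like element AACCNGTT, the E-box CAGGTG and the GC-box GGGCGG. No marked matches overlap.
Cldn1 (chr16:26371840-26372089, minus strand): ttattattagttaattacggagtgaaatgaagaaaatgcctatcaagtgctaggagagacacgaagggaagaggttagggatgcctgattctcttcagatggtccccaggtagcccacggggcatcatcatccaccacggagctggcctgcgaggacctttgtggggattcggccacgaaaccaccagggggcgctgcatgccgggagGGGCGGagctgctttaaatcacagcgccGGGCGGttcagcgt
Cldn4 (chr5:134946935-134947184, minus strand): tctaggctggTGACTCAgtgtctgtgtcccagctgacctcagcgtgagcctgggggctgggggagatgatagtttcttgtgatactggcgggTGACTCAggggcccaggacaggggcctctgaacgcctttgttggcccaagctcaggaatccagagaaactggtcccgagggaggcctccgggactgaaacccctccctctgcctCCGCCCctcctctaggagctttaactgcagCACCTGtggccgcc
F11r (chr1:171437311-171437560, plus strand): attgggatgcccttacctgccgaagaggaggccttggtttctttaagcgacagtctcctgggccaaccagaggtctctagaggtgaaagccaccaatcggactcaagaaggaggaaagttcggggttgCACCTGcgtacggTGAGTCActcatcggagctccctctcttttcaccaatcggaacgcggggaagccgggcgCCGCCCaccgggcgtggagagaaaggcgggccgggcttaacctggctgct
Cldn5 (chr16:18776597-18776846, plus strand): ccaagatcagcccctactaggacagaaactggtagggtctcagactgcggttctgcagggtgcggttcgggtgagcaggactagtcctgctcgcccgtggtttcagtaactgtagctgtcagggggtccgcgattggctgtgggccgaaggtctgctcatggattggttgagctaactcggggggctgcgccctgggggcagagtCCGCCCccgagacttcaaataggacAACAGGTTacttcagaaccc

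Over 32851 such windows of all genes, 6.75% held the AP-1 element, 1.79% the Grainyhead-like element, 17.2% the E-box and 32.7% the GC-box. The Cldn4 window held 2 AP-1 elements, at 240 to 234 and 158 to 152 bases before the start, and the F11r window held 1, at 109 to 103 bases. Both also held 1 E-box and 1 GC-box. The Cldn1 window held 2 GC-boxes and none of the other 3 elements. The Cldn5 window held 1 GC-box and 1 Grainyhead-like element, at 20 to 13 bases before the start. Among the windows of the other 5 genes, Cldn7 and Cldn12 included, none held an AP-1 or a Grainyhead-like element. E-boxes lay in windows of Cldn7, Ocln and Tjp3, and GC-boxes in windows of Cldn7, Cldn12, Ocln and Tjp1. Some of these genes have more than 1 start. These are matches of letters, and binding was not measured.

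With all 4 libraries no member passed the test between the groups, limma on log2(scaled CPM + 0.5) with p-values adjusted by Benjamini-Hochberg across every gene tested. The test covered genes that reached 1 scaled CPM in 2 or more of the libraries, which 8 of the 9 members met and Cldn7 did not. Of the 15419 genes tested 0 passed at an adjusted p under 0.05, which is 0%, and 0 of the 8 members did. At an unadjusted p under 0.05 there were 2 of the 8 members, Cldn1 and Cldn5, against 2.48% of all genes. Cldn5 was close to that threshold and lay above it with a pseudocount of 0.1, a filter of 5 scaled CPM, plain CPM, median ratio scaling, quantile normalization, no variance trend or robust eBayes, where Cldn1 was the 1 member under it. On recovered reads edgeR called 0% of genes and DESeq2 0.123%, and neither called a member, with Cldn1 the 1 member at an unadjusted p under 0.05 in each. The groups did not overlap at 4 of the 8 members. Of these, 2 were higher at 1 week (Cldn5 and Tjp3), against 14% of all genes, and 2 lower (Cldn1 and Ocln), against 9.14%. The median log2 difference was -0.0099 over the 8 members and -0.024 over all genes tested.

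**Figure D1:**
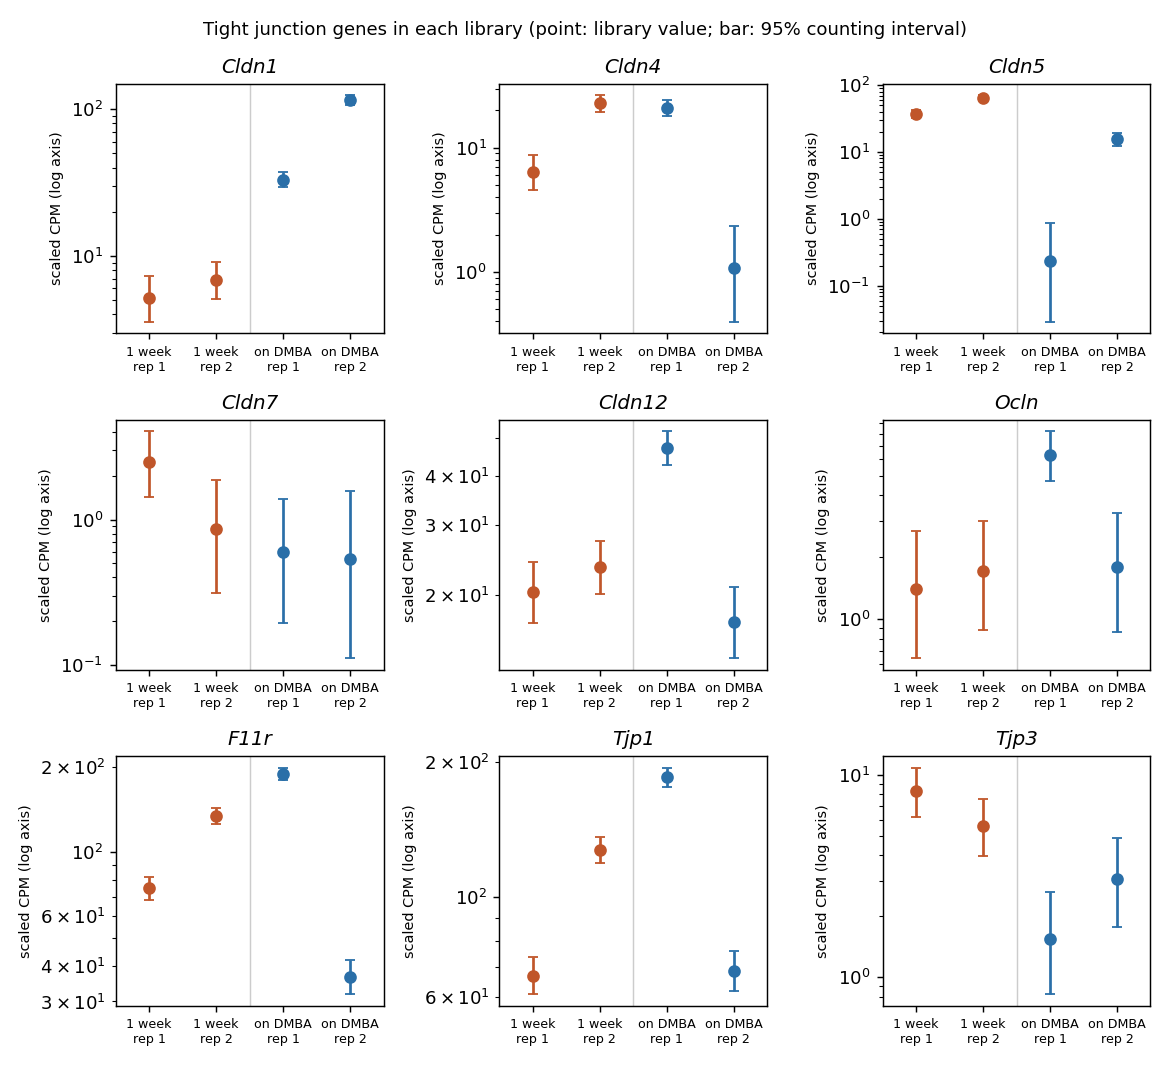
Level of each of the 9 genes in scaled CPM (log axis) in the 1-week libraries and the on-DMBA libraries, 1 point per library with its 95% counting interval. Cldn1 is low in both 1-week libraries at 5.16 and 6.85 scaled CPM, Cldn5 is lowest in on-DMBA replicate 1 at 0.237 scaled CPM, and F11r, Tjp1, Cldn12 and Ocln are highest in that same library.

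Cldn1, the claudin of the epidermal barrier, had the smallest p of the members and ranked 35 among all genes tested by p. It was at 5.16 scaled CPM (33 reads) and 6.85 scaled CPM (48 reads) in the 1-week libraries, against 33.1 scaled CPM (279 reads) and 116 scaled CPM (645 reads) in the on-DMBA libraries. Both 1-week libraries lay below both on-DMBA libraries, and the spread was wider between the on-DMBA libraries than between those at 1 week. The mean was 6.0 ± 1.19 scaled CPM at 1 week and 74.4 ± 58.4 scaled CPM on DMBA (SD, n = 2 each), and the log2 difference was -3.28 (SE 0.78, limma adjusted p = 0.9997). In such bulk samples fewer cells of a type and less RNA per cell cannot be told apart.

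Cldn1 was lower at 1 week whichever on-DMBA library was kept. Against on-DMBA replicate 2 alone the log2 difference was -4.17 (limma adjusted p = 3.04e-11), in a fit that called 3.35% of genes. Against on-DMBA replicate 1 alone it was -2.38 (limma adjusted p = 0.000244), in a fit that called 24.4% of genes. These fits have 1 on-DMBA library and assume that it varies like the 1-week libraries. The direction also stayed with a single 1-week library, at -3.09 without 1-week replicate 1 and -3.47 without replicate 2, neither of which passed. DESeq2 gave a log2 difference of -3.67 on recovered reads with an adjusted p of 0.0625, and edgeR gave -3.61 with no call. Cldn1 was highest in on-DMBA replicate 2, the library in which all 13 epithelial markers were lowest. On the log2 scale its level minus the mean of the epithelial markers was -3.61 and -3.08 at 1 week and -4.73 and 3.56 on DMBA, so that on that scale the groups overlapped, as they did for 99.3% of all genes tested.

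Cldn4, a claudin of many simple epithelia that also appears in the upper layers of the epidermis, differed as much within the groups as between them. It was at 6.41 scaled CPM (41 reads) and 22.8 scaled CPM (160 reads) at 1 week, against 21.0 scaled CPM (177 reads) and 1.08 scaled CPM (6 reads) on DMBA. The high values were those of 1-week replicate 2 and on-DMBA replicate 1, 1 in each group. Epcam, an epithelial adhesion molecule that binds claudins, was at 26.6 and 115 scaled CPM at 1 week and 125 and 1.44 scaled CPM on DMBA, and so had its high values in the same libraries. Other epithelial markers did not share this. In 1-week replicate 2 Krt5, Krt14 and Cdh1 were at 613, 1944 and 44.2 scaled CPM. In on-DMBA replicate 1 they were far higher, at 11731, 26654 and 459 scaled CPM. The log2 difference of Cldn4 was 1.12 (SE 1.43) with all 4 libraries. It was 3.01 against on-DMBA replicate 2 alone, the library with 6 reads, and -0.76 against on-DMBA replicate 1 alone. The median log2 difference of the 13 epithelial markers was 3.14 and -3.62 in the same fits. Their part in the Cldn4 differences was not tested.

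Cldn5, the main claudin of blood vessel endothelium, was high in the 1-week libraries. It was at 36.9 scaled CPM (236 reads) and 65.0 scaled CPM (456 reads) at 1 week, against 0.237 scaled CPM (2 reads, interval 0.0288 to 0.858) and 15.6 scaled CPM (87 reads) on DMBA. The groups did not overlap. The log2 difference was 3.84 (SE 1.51, limma adjusted p = 0.9997). It was 6.07 against on-DMBA replicate 1 alone (limma adjusted p = 2.69e-25) and 1.62 against on-DMBA replicate 2 alone (limma adjusted p = 0.0804), so the call rested on the replicate with 2 reads. All 10 endothelial markers were also higher at 1 week with no overlap of the groups, against 14% of all genes. The same held for 5 of the 10 fibroblast markers and 0 of the 10 leukocyte markers. All 10 markers of each of these lists were lowest in on-DMBA replicate 1. The part of the endothelial markers in the Cldn5 difference was not tested. Over the 4 libraries Cldn5 lay closest to Cdh5, which encodes the endothelial cadherin and was at 81.1 and 165.9 scaled CPM at 1 week and 1.31 and 41.5 scaled CPM on DMBA.

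**Figure D2:**
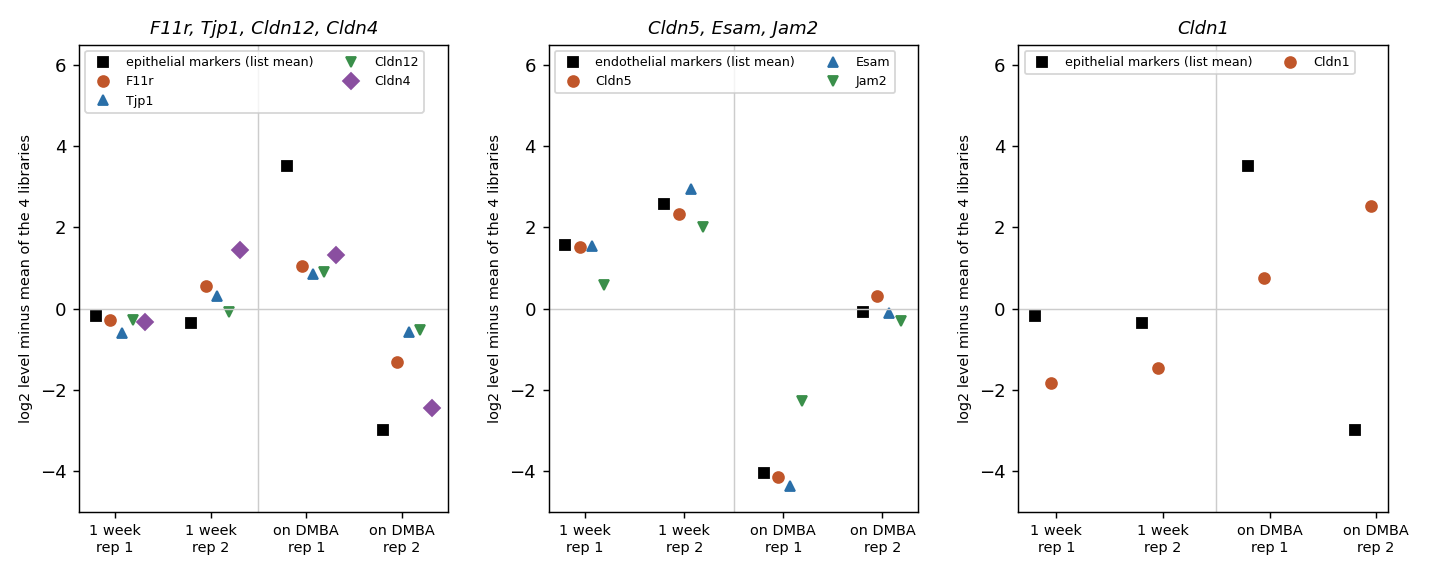
Log2 level in each library minus the mean over the 4 libraries, for F11r, Tjp1, Cldn12 and Cldn4 with the mean of 13 epithelial markers (left), Cldn5, Esam and Jam2 with the mean of 10 endothelial markers (middle) and Cldn1 with the epithelial mean (right). Points are single libraries, the 1-week libraries left and the on-DMBA libraries right. Cldn5 and Esam lie near the endothelial mean in every library, while Cldn1 is highest where the epithelial mean is lowest.

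Cldn12, a broadly expressed claudin that lacks the usual PDZ-binding end, was at 20.3 scaled CPM (130 reads) and 23.5 scaled CPM (165 reads) at 1 week, against 47.0 scaled CPM (396 reads) and 17.1 scaled CPM (95 reads) on DMBA. The groups overlapped, and only on-DMBA replicate 1 stood above the others. The log2 difference was -0.37 (SE 0.68). It was -1.09 against on-DMBA replicate 1 alone and 0.35 against on-DMBA replicate 2 alone, with no call in either fit.

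Cldn7, a claudin of epithelial cells that can bind Epcam, was close to the detection limit. It had 16 reads and 6 reads at 1 week, or 2.50 scaled CPM (interval 1.43 to 4.06) and 0.856 scaled CPM (interval 0.314 to 1.86). On DMBA it had 5 reads and 3 reads, or 0.594 scaled CPM (interval 0.193 to 1.39) and 0.538 scaled CPM (interval 0.111 to 1.57). The intervals of 1-week replicate 2 and of both on-DMBA libraries overlapped. The interval of 1-week replicate 1 overlapped those of 1-week replicate 2 and on-DMBA replicate 2. It lay just above that of on-DMBA replicate 1. Overlap of intervals is not a test, and with so few reads no difference between the libraries is claimed. Cldn7 had 5 reads in on-DMBA replicate 1, the library with the highest level of all 13 epithelial markers.

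The other membrane members also had their highest level in on-DMBA replicate 1. Ocln, the tetraspan protein of the junction strand, was at 1.41 scaled CPM (9 reads) and 1.71 scaled CPM (12 reads) at 1 week, against 6.29 scaled CPM (53 reads) and 1.79 scaled CPM (10 reads) on DMBA. Its groups did not overlap, but by 0.0832 scaled CPM between the highest 1-week and the lowest on-DMBA library, which is less than 1 read. The log2 difference was -0.94 (SE 0.84), -1.73 against on-DMBA replicate 1 alone and -0.16 against on-DMBA replicate 2 alone, with no call. F11r, an immunoglobulin-like adhesion molecule of epithelium, endothelium, leukocytes and platelets, was at 74.9 scaled CPM (479 reads) and 134 scaled CPM (943 reads) at 1 week, against 189 scaled CPM (1592 reads) and 36.6 scaled CPM (204 reads) on DMBA. The 1-week libraries lay between the on-DMBA libraries. The log2 difference of F11r was 0.27 (SE 0.90), while edgeR gave -0.04 and DESeq2 -0.09, so that its direction changed with the tool. It was -0.91 against on-DMBA replicate 1 alone and 1.44 against on-DMBA replicate 2 alone, with no call.

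Of the scaffolds, Tjp1 encodes ZO-1, which binds claudins, occludin and actin and is present in most cells with junctions. It was at 67.0 scaled CPM (429 reads) and 128 scaled CPM (894 reads) at 1 week, against 185 scaled CPM (1559 reads) and 68.7 scaled CPM (383 reads) on DMBA. The groups overlapped, with a log2 difference of -0.29 (SE 0.71), -0.997 against on-DMBA replicate 1 alone and 0.43 against on-DMBA replicate 2 alone. Tjp3 encodes ZO-3, a scaffold found mainly in epithelia. It was at 8.28 scaled CPM (53 reads) and 5.56 scaled CPM (39 reads) at 1 week, against 1.54 scaled CPM (13 reads) and 3.05 scaled CPM (17 reads) on DMBA. Both 1-week libraries lay above both on-DMBA libraries, and Tjp3 was lowest in on-DMBA replicate 1. The log2 difference of Tjp3 was 1.44 (SE 0.73, limma adjusted p = 0.9997). It was 1.84 against on-DMBA replicate 1 alone, which passed at the threshold (limma adjusted p = 0.0494), and 1.04 against on-DMBA replicate 2 alone (limma adjusted p = 0.915).

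**Figure D3:**
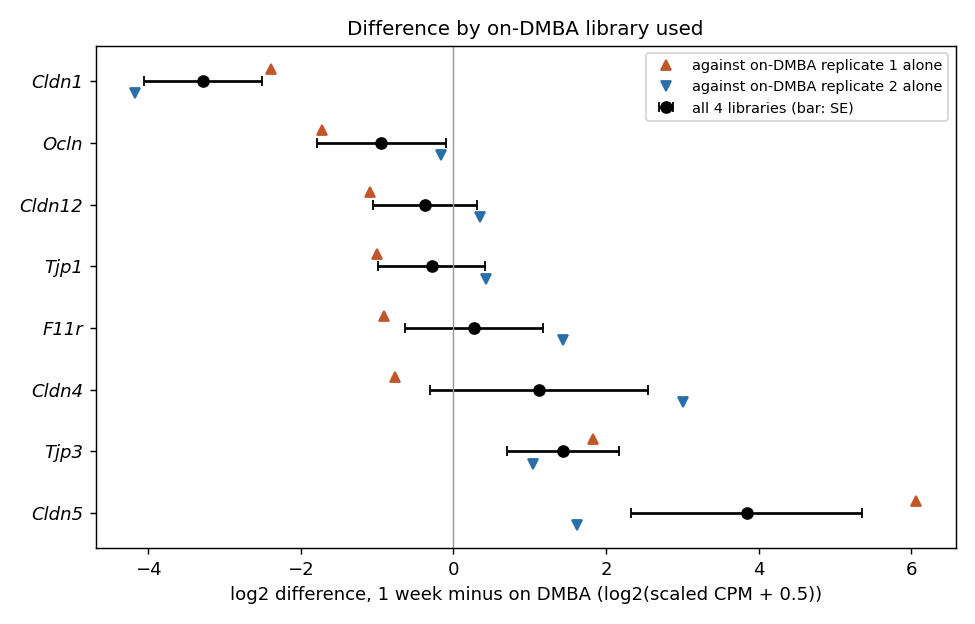
Log2 difference, 1 week minus on DMBA, on log2(scaled CPM + 0.5), for the 8 members tested. Black points are the fit of all 4 libraries with the standard error, and triangles the same 1-week libraries against each on-DMBA library alone. Cldn1 is below 0 at all 3 points (-4.17, -3.28 and -2.38), Ocln is also below 0 and Cldn5 and Tjp3 above it at all 3, and Cldn12, Tjp1, F11r and Cldn4 have triangles on both sides of 0.

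The direction held with either on-DMBA library for Cldn1, Ocln, Cldn5 and Tjp3, and turned for Cldn12, Tjp1, F11r and Cldn4. Where the groups did not overlap, as for Cldn1, Ocln, Cldn5 and Tjp3, the direction could not turn. With overlapping groups it may turn or hold. Against on-DMBA replicate 2 alone 1 member passed as higher (Cldn4), against 2.35% of all genes, and 1 as lower (Cldn1), against 0.999%. Against on-DMBA replicate 1 alone 2 members passed as higher (Cldn5 and Tjp3), against 14.3% of all genes, and 1 as lower (Cldn1), against 10%. Both fits share the 1-week libraries. The median log2 difference of the 8 members was 0.73 in the first fit and -0.95 in the second, against 0.035 and -0.059 over all genes tested.

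Per kilobase of the longest annotated transcript (GENCODE M21), F11r had the highest level of the members in 3 of the 4 libraries, at 29.7 and 53.4 scaled CPM per kilobase at 1 week and 75.1 in on-DMBA replicate 1. In on-DMBA replicate 2 Cldn1 was highest at 27.9 scaled CPM per kilobase, with F11r next at 14.5. Cldn5 was second in both 1-week libraries, at 26.0 and 45.9 scaled CPM per kilobase, and last in on-DMBA replicate 1, at 0.168. Tjp1 was second in on-DMBA replicate 1 at 26.3 scaled CPM per kilobase. Ocln was last in both 1-week libraries at 0.347 and 0.422 scaled CPM per kilobase, and Cldn7 was last in on-DMBA replicate 2 at 0.403, next to Ocln at 0.443.

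Likeness to other genes was measured as the root mean square difference of log2 levels, each centred on its mean over the 4 libraries. The candidates were tested genes whose mean reached 5 scaled CPM. Genes with clone-type, predicted-gene or small RNA symbols were left out. For Cldn1 the nearest of 11032 genes was Btc, which encodes the EGF receptor ligand betacellulin, at a distance of 0.37. Btc was at 1.09 and 1.28 scaled CPM at 1 week and 4.27 and 22.8 scaled CPM on DMBA, and no other candidate lay within 0.5. Next came Gbp1 at 0.68, an interferon-inducible GTPase, and Plekha6 at 0.77. For Cldn5 the nearest were Cdh5 at 0.097, Apold1 at 0.10 and Emcn, the endothelial sialomucin endomucin, at 0.13, and 86 genes lay within 0.5. For Cldn7 they were Slc45a3 at 0.092, the cytokine signalling inhibitor Socs1 at 0.11 and the receptor gene Cntfr at 0.12, with 394 genes within 0.5 of a profile that rests on 3 to 16 reads per library. Each distance rests on 4 libraries. Among the members themselves, Cldn12 and Tjp1 lay closest at 0.26, followed by Cldn12 and Ocln at 0.29.

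Of 57 further tight junction genes, 55 were in the table and 44 were tested. In limma 0 of the 44 passed, with 2 at an unadjusted p under 0.05 (Esam and Jam2), against 2.48% of all genes. EdgeR and DESeq2 called 0 as well, with 1 and 3 at an unadjusted p under 0.05. Over all 15419 genes that p was reached by 229 higher and 42 lower in edgeR, and by 386 higher and 178 lower in DESeq2. Without overlap of the groups, 7 genes were higher at 1 week, against 14% of all genes, and 1 was lower, against 9.14%, or 18.2% of the 44 in all. Those higher were Cldn10, Jam2, Jam3, Esam, Igsf5, Magi2 and Amotl2, and the 1 lower was Mpp5, a scaffold of the Crumbs polarity complex. Cldn10 reached the filter on low values only through the 1-week libraries, where it was high, so its place among these was set in part by the filter, and no other of the 44 genes reached it through 1 group alone. The median log2 difference was 0.08, against -0.024 over all genes tested. After quantile normalization it was -0.15, against -0.15 over all genes tested.

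Of the 44 genes tested, Esam, Jam2 and Jam3 had the largest log2 differences. Esam, an adhesion molecule of endothelial junctions and platelets, was at 43.6 and 116 scaled CPM at 1 week, against 0.237 and 13.6 scaled CPM on DMBA, a log2 difference of 4.47 (SE 1.49). It passed against either on-DMBA library alone, at 2.34 against replicate 2 (limma adjusted p = 0.0016) and 6.60 against replicate 1 (limma adjusted p = 1.68e-31). Jam2, a junctional adhesion molecule prominent in endothelium, was at 17.8 and 48.5 scaled CPM at 1 week, against 2.02 and 9.33 scaled CPM on DMBA, a log2 difference of 2.59 (SE 0.95). It passed against on-DMBA replicate 1 alone, at 3.57 (limma adjusted p = 2.40e-09), and not against on-DMBA replicate 2 alone, at 1.61 (limma adjusted p = 0.0798). Jam3 was at 22.0 and 23.2 scaled CPM at 1 week, against 0.356 and 20.5 scaled CPM on DMBA, with a log2 difference of 2.45 (SE 1.55). That difference was 4.76 against on-DMBA replicate 1 alone (limma adjusted p = 3.84e-13) and 0.14 against on-DMBA replicate 2 alone, so it rested on 1 low library. The endothelial markers had the same order of libraries as Esam and Jam2, and their part in these differences was not tested.

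**Figure D4:**
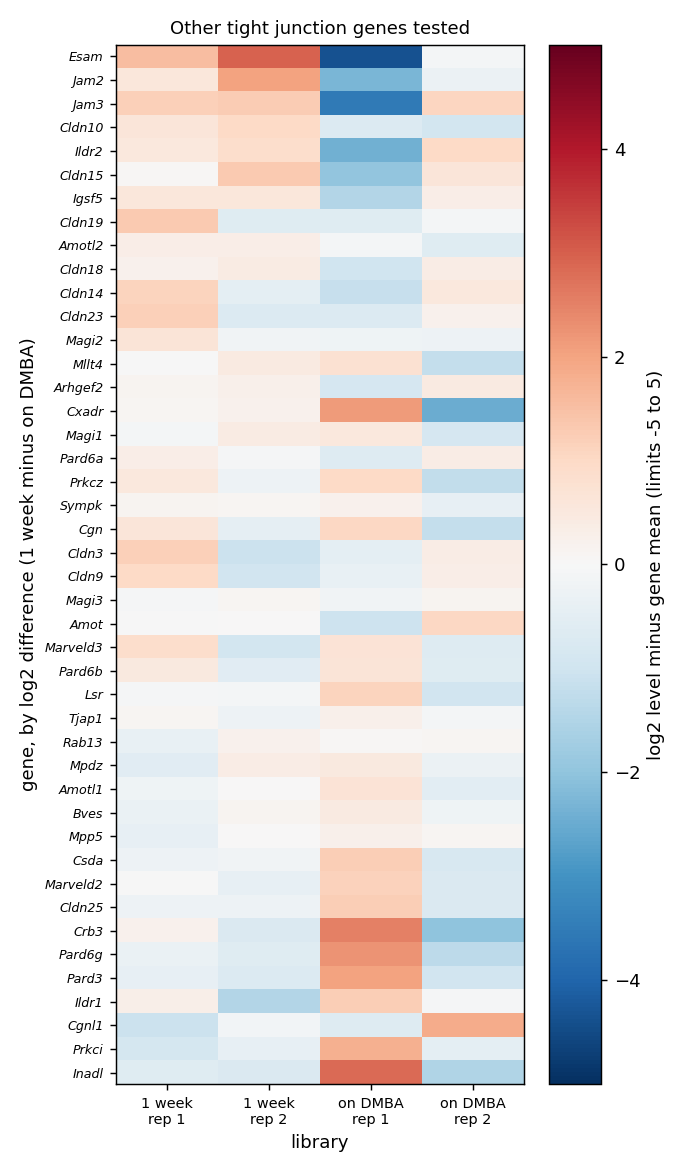
Log2 level of each of the 44 other tight junction genes tested, minus the mean of the gene over the 4 libraries, with 1-week libraries left and on-DMBA libraries right, sorted by log2 difference. Esam, Jam2 and Jam3 at the top are lowest in on-DMBA replicate 1, and Inadl, Prkci, Pard3, Pard6g and Crb3 near the bottom are highest in it. Cgnl1, also near the bottom, is highest in on-DMBA replicate 2.

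Among the other claudins tested Cldn10 was at 2.50 and 3.42 scaled CPM at 1 week against 0.712 and 0.538 scaled CPM on DMBA, a log2 difference of 1.61 (SE 0.71) in a gene that the filter kept for its 1-week values. It was 1.501 against on-DMBA replicate 1 alone and 1.72 against on-DMBA replicate 2 alone, with no call. Cldn3, a claudin of simple epithelia, had 17 reads and 1 read at 1 week and 4 reads and 7 reads on DMBA, so its libraries did not order by group. Of the 20 in the table, 11 were not tested because fewer than 2 libraries reached 1 scaled CPM, and 5 of these, Cldn8 among them, reached it in 1 library. Cldn16, a kidney claudin, had no read in any library. Cldn8 and Cldn17, chosen after their values were seen, were found almost only in on-DMBA replicate 1. Cldn8 was at 0.313 and 0.856 scaled CPM at 1 week (2 reads and 6 reads), against 53.1 and 0.718 scaled CPM on DMBA (447 reads and 4 reads). Cldn17 was at 0 and 0.143 scaled CPM at 1 week (0 reads and 1 read), against 3.56 and 0.179 scaled CPM on DMBA (30 reads and 1 read).

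Of the 23 scaffold and polarity genes, 15 (65.2%) were highest in on-DMBA replicate 1, against 41.7% of all genes tested, and 13 (56.5%) were lowest in on-DMBA replicate 2, against 23.2%. These shares are a description, with no test. Cgn, which encodes the cytoplasmic linker cingulin, was at 4.38 and 1.85 scaled CPM at 1 week, against 6.17 and 0.897 scaled CPM on DMBA. Marveld2, of the membrane proteins, encodes tricellulin, the protein of the corners where 3 cells meet, and was at 5.0 and 3.71 scaled CPM at 1 week, against 11.99 and 2.87 scaled CPM on DMBA. Prkci, the atypical protein kinase C of the PAR polarity complex, was at 30.01 and 41.6 scaled CPM at 1 week, against 192 and 39.7 scaled CPM on DMBA. Amotl2, an angiomotin family scaffold, was at 115 and 114 scaled CPM at 1 week, against 85.5 and 59.2 scaled CPM on DMBA, a log2 difference of 0.68 (SE 0.50), which was 0.42 against on-DMBA replicate 1 alone and 0.95 against on-DMBA replicate 2 alone, with no call. Of these 4 genes the groups separated for Amotl2.

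Against on-DMBA replicate 2 alone, 3 of the 44 genes (6.82%) passed, against 3.35% of all genes. Esam and the virus receptor and junction protein gene Cxadr were higher, and the cingulin relative Cgnl1 was lower. Cgnl1 was at 25.6 and 48.5 scaled CPM at 1 week, against 34.3 and 198 scaled CPM on DMBA, and so, like Cldn1, was highest in on-DMBA replicate 2. Against on-DMBA replicate 1 alone, 12 genes (27.3%) passed, against 24.4% of all genes, 5 higher and 7 lower, and Cxadr was then among the lower ones. Cxadr was at 49.9 and 54.2 scaled CPM at 1 week, against 203 and 7.90 scaled CPM on DMBA, so its 1-week libraries lay between the on-DMBA libraries.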

How the data were processed

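Per the labels' protocols, libraries of sorted tumour cells were depleted of ribosomal RNA and made with a strand-marking kit. Per the submitters' processing notes the build was mm9, and edgeR 3.2.3, HTSeq, TopHat2 2.1 and CASAVA 1.8.2 are listed with no role given. The sources used here do not name the annotation or the strand setting of the counting, so reads of overlapping genes may not be separated. The authors deposited 1 table with a normalised signal for each gene in each library, which is called CPM in it. The columns sum to 867697 and 1092838 at 1 week and 1149287 and 1011509 on DMBA, so the unit is CPM against a scaled library size, where plain CPM had been planned for, and the log-scale test was kept. Each library's values were, for 100% of genes, whole multiples of 1 step within 0.01 reads, which gave the recovered reads. A floor of 3 reads is 0.469 and 0.428 scaled CPM at 1 week and 0.356 and 0.538 on DMBA.

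Every column was matched to a sample by its description. Tests used R 4.3.3, limma 3.58.1 (eBayes with a variance trend, two-sided), edgeR 4.0.16 (quasi-likelihood) and DESeq2 1.42.0, and were tested on simulated data. The simulated spread between libraries was preset and not taken from these libraries, so that run does not show how the tests perform here. With 2 libraries against 2, the smallest two-sided p of an exact permutation test is 0.333. Members, lists and tests were chosen with earlier results of these data known. The named genes were all 9 members, 4 fixed others (Cldn3, Marveld2, Cgn, Jam3; 1 more is not reported here), the 6 others with the smallest p, the first 4 of each marker list and the 3 nearest genes to Cldn1, Cldn5 and Cldn7; those named beyond this rule (genes in counts, Cldn8, Cldn16, Cldn17, Cgnl1, Cxadr and polarity genes in the plot) were chosen after their values were seen. Alternatives were other pseudocounts, filters, scalings and eBayes settings, a replicate block, leaving out each library, and edgeR and DESeq2 on recovered reads.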

Additional observations from a re-analysis of the deposited data

How the results depend on the processing

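The counts of genes called higher and lower were 0 and 0 with all 4 libraries, 16 and 3 in DESeq2, and ranged over 0 to 2212 higher and 0 to 1549 lower when each library was left out in turn. The median of the members tested ranged from -0.95 to 0.73 over those same fits. Leaving out 1 library turned the direction of some genes, whose log2 differences ranged from -0.76 to 3.01 for Cldn4, -1.09 to 0.35 for Cldn12, -0.91 to 1.44 for F11r, -0.997 to 0.43 for Tjp1, -1.38 to 0.51 for Marveld2, -0.98 to 1.28 for Cgn and -1.03 to 1.27 for Cldn3. The other alternatives turned F11r (-0.040 in edgeR, -0.088 in DESeq2), Cgn (-0.20 with quantile normalization, -0.090 in edgeR, -0.12 in DESeq2) and Cldn3 (-0.11 with a pseudocount of 0.1, -0.50 with quantile normalization), and the cause was not tested. Quantile normalization moved the median of all genes by -0.12 and plain CPM by 0.14. Cldn1 stayed lower and Cldn5 and Tjp3 stayed higher in every alternative run.

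The replicate numbers belong to different mice, so they do not pair the libraries by animal. The deviations of same-numbered libraries had a correlation of 0.015 across genes. That value cannot decide on pairing, because the on-DMBA libraries differed so widely in their markers. With a replicate block limma called 285 genes higher and 3 lower of 15419, among them Cldn1 (adjusted p = 0.0323), Cldn5 (adjusted p = 0.0118) and Esam (adjusted p = 0.00143), in a fit with 1 residual degree of freedom. That fit also called 9 of the 10 endothelial, 7 of the 10 leukocyte and 2 of the 10 fibroblast markers higher. Of the 13 epithelial markers it called 1 lower.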
